A study of Mus musculus with 12 samples.

Results

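The 4506 positions described here are Eed summits that recurred between genotypes in the embryonic mouse forebrain. A summit is the highest point of a called peak. Members were chosen by the measured positions of Eed summits in both genotypes. A wild type Eed summit was counted as shared when an EedcKO Eed summit lay within 500 bp, and 4506 of 61019 wild type Eed summits (7.38%, 95% Wilson interval 7.18 to 7.59) met that rule. The other 56513 are called wild type only. Seen from the EedcKO list, 4705 of its 39351 summits lay near a wild type summit, and all 8 summit lists of the study together held 159742 summits.

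The study mapped chromatin in the untreated forebrain of C57BL/6 mouse embryos at E12.5, during cortical neurogenesis, with 2 genotypes, EedcKO and wild type. Eed and its input were profiled by chromatin immunoprecipitation after cross-linking (X-ChIP), while CUT&Tag, which uses an antibody-bound transposase to cut nearby DNA, profiled H3K27me3, H3K27ac and RNA-Pol2 with IgG as its control. Each genotype had 1 library per target, so every comparison sets 1 library against 1, has no replicate check and carries no test. Intervals cover counting error only. The sources used here do not give the Cre driver, the deleted part of Eed or the number and sex of the embryos. Each library came from whole forebrain tissue, so a change in the share of cells with a mark and a change of the mark within each cell cannot be told apart.

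Eed belongs to the core of Polycomb repressive complex 2 (PRC2), whose Ezh1 or Ezh2 subunit places methyl groups on lysine 27 of histone H3. Eed holds the finished mark, H3K27me3, in a pocket of its WD-repeat fold and so stimulates further methylation nearby. In mammals PRC2 gathers at CpG islands, stretches rich in CpG dinucleotides that overlap many promoters, and in the forebrain it keeps regulators of other regions and lineages silent. H3K27ac occupies the same lysine at active promoters and enhancers, and RNA-Pol2 transcribes the genes.

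Promoters at which both Eed summits fell inside the RefSeq promoter sequence show what kind of DNA lies under a shared summit. RefSeq promoters (assembly GRCm38.p6) run from 250 bases before to 50 bases after a gene's start, and those of 96 genes held both summits. Of these, 26 lay near a wild type H3K27me3 summit and not near an H3K27ac summit, and 9 lay near H3K27ac and not near H3K27me3. The highest-scoring examples of each kind are printed below 5′ to 3′ on the gene's strand, with CpG dinucleotides in capitals, together with a wild type only promoter near H3K27me3 for comparison. Col8a2 encodes a collagen, Dock10 a guanine nucleotide exchange factor, Yrdc an enzyme of tRNA modification, Szrd1 a small protein with a SUZ domain, and Bcam a laminin-binding cell adhesion molecule.
Col8a2, shared, near H3K27me3, chr4:126286544-126286843, plus strand: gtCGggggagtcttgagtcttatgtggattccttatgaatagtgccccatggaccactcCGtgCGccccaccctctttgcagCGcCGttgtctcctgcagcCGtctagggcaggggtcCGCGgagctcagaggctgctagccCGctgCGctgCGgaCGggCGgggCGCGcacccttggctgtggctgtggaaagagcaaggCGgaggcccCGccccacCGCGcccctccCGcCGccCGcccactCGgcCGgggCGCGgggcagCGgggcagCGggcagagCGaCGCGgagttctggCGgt
Dock10, shared, near H3K27me3, chr1:80758504-80758803, minus strand: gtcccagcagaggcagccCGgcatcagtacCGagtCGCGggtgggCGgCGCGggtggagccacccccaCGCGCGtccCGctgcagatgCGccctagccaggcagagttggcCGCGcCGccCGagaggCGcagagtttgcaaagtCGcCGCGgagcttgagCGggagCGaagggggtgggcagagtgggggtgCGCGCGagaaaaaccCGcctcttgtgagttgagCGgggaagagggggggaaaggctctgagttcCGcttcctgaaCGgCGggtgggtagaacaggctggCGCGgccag
Yrdc, shared, near H3K27ac, chr4:124850509-124850808, plus strand: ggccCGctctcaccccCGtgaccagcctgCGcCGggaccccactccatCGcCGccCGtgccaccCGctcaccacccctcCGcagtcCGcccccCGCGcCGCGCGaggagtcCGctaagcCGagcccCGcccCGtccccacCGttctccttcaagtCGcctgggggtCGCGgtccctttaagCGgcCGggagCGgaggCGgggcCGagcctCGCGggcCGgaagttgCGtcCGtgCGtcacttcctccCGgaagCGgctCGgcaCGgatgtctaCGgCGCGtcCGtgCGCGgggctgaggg
Szrd1, shared, near H3K27ac, chr4:141139747-141140046, minus strand: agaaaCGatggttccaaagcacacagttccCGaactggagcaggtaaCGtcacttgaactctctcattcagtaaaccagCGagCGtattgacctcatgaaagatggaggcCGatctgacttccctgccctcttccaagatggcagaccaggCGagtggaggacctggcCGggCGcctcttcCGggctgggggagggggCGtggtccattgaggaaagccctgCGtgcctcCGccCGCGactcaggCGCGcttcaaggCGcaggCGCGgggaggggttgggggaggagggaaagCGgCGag
Bcam, wild type only, near H3K27me3, chr7:19770483-19770782, minus strand: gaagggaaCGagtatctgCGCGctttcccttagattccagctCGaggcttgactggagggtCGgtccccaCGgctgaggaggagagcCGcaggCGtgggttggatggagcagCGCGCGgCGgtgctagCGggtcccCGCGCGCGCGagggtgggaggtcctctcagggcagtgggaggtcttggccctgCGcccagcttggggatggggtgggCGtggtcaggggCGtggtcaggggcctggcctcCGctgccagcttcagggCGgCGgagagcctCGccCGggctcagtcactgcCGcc

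All of these sequences were rich in CpG, whichever mark lay near. Col8a2 and Dock10 each held 32 CpG dinucleotides in 300 bases, Yrdc held 44, Szrd1 held 22 and Bcam, the wild type only example, held 27. The EedcKO summit of Yrdc lay at base 11 and the wild type summit at base 25 of the printed sequence, and at Col8a2 the EedcKO summit lay at base 85 and the wild type summit at base 229. Over the 2 kb promoter window, Col8a2 held 32 counts in the library labelled EedcKO H3K27me3 and 752 in wild type H3K27me3, beside 1020 in the library labelled EedcKO H3K27ac and 25 in wild type H3K27ac. Yrdc held 121 counts in the library labelled EedcKO H3K27me3 and 72 in wild type H3K27me3, beside 53 in the library labelled EedcKO H3K27ac and 121 in wild type H3K27ac. Eed counts were 65 in EedcKO and 118 in wild type at Col8a2, and 58 in EedcKO and 237 in wild type at Yrdc, beside inputs of 12 to 21 counts at both genes.

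Labels were checked before the marks were compared. Over 55276 promoters, counts labelled EedcKO H3K27ac correlated more closely with H3K27me3 of wild type (Pearson r = 0.936) than with its H3K27ac (r = 0.680). Counts labelled EedcKO H3K27me3 correlated most closely with RNA-Pol2 of wild type (r = 0.931), and their correlations with EedcKO RNA-Pol2 (r = 0.883), EedcKO IgG (r = 0.871) and wild type H3K27ac (r = 0.867) were also closer than that with wild type H3K27me3 (r = 0.736). These coefficients are across promoters of the same libraries and are descriptions only. Both libraries are therefore named by their labels below, and positions of the marks rest mainly on the wild type lists. Promoter counts totalled 948955 to 3842779 per library, and counts given for single promoters are not scaled to these totals. Of the forebrain markers, Emx2 held a shared promoter summit, and Emx1 and Lhx2 a wild type only one. The microglial markers Cx3cr1, Csf1r, Aif1, C1qa and P2ry12 and the erythroid markers Alas2, Klf1 and Slc4a1 had no wild type Eed summit at their promoters.

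The Eed gene itself carried a shared summit. Its promoter window (mm10, chromosome 7, 89979983 to 89981982, minus strand) held summits 66 bp apart, at 89980253 in EedcKO and 89980319 in wild type. Counts there were 40 in EedcKO Eed and 121 in wild type Eed, beside inputs of 19 in EedcKO and 27 in wild type. Without knowledge of the deleted stretch of Eed, these counts do not check the genotype.

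Shared summits were the stronger part of the wild type list but not of the EedcKO list. The score of a summit is the authors' −log10 p-value or q-value, which of these is not stated, and it is used only within a list. Shared summits had a median wild type score of 33.1 (quartiles 11.6 and 55.5), against 10.3 (5.52 and 24.8) for wild type only summits. Among EedcKO summits, those near a wild type summit and those without had the same median, 3.61, and the same quartiles, 3.23 and 4.66. These values come from the lists that chose the members and are given as a description. Split into 10 score classes, the wild type list had 2.34% of its summits shared in the lowest class and 19.4% in the highest.

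Matched summits often lay close to each other. The median distance was 189 bp (quartiles 81 and 335.75 bp). Of the wild type summits, 1338 had an EedcKO summit less than 100 bp away, 666 had one from 400 to under 500 bp away, and 280 had one from 1900 to under 2000 bp away. Just inside the limit of 500 bp, the 674 summits at 401 to 500 bp had a median wild type score of 25.6, 47.9% lay in a promoter window and 16.8% lay near wild type H3K27me3. Just outside it, the 581 summits at 501 to 600 bp had a median score of 25.8, with 42.0% in a promoter window and 15.3% near wild type H3K27me3. The limit thus cuts through a continuous run of distances.

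**Figure D1:**
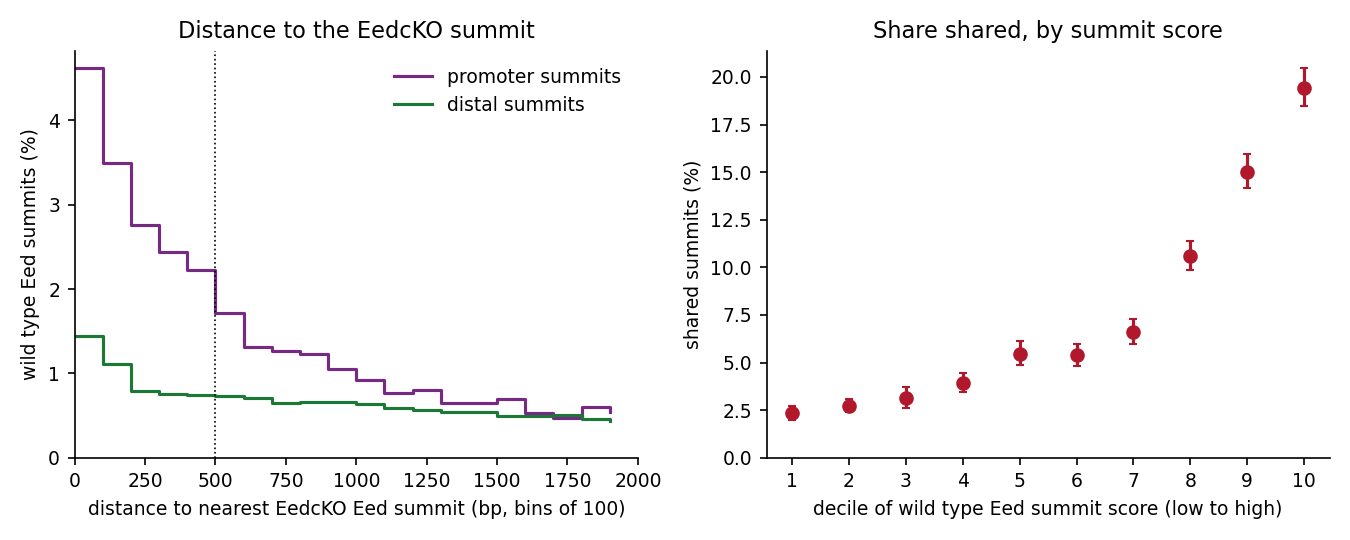
Left, share of wild type Eed summits (percent) in each 100 bp bin of distance to the nearest EedcKO Eed summit, for promoter and distal summits, with the 500 bp limit dotted. Right, share of wild type Eed summits that were shared (percent, points with 95% Wilson intervals) by decile of wild type score, low to high, with 2.34% in the lowest and 19.4% in the highest.

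Shared summits lay at promoters more often than wild type only summits. A promoter window here is the deposited 2 kb window around an annotated start site. Of the 4506 shared summits, 2242 (49.8%, 48.3 to 51.2) lay in such a window, against 12164 of 56513 wild type only summits (21.5%, 21.2 to 21.9) and 23.6% of all wild type Eed summits. Put the other way, 15.6% of promoter summits and 4.86% of distal summits were shared. Median distance to the nearest start site was 1037.5 bp for shared and 11233 bp for wild type only summits. Within 250 bp of a start site lay 26.5% of shared and 11.9% of wild type only summits, and beyond 50 kb lay 4.17% of shared and 17.7% of wild type only summits. The difference in promoter share was 28.2 percentage points (26.7 to 29.7). It was 11.4 points with wild type only summits weighted to the score quintiles of the shared ones, a comparison added after the data were seen.

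The shared summits were spread over many genes. They had 3961 different nearest genes, and the nearest start site belonged to a protein-coding gene for 3191 of them. Another wild type Eed summit stood within 5 kb of 48.6% of shared and 30.2% of wild type only summits. Gata2, which encodes a zinc finger regulator of blood and of GABAergic neurons of the midbrain and spinal cord, had the most among named protein-coding genes, with 4 shared summits within 5 kb of its start. A further 18 genes had 3 each, among them the cortical neuron regulator Bcl11b, the adhesion receptor genes Celsr2 and Celsr3, and Foxa2, Foxf1 and Nkx2-1, regulators of endoderm, mesenchyme and the ventral forebrain.

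Chromosomes differed in how many of their summits were shared, and the X chromosome stood lowest. Of 1528 wild type Eed summits on X, 13 were shared (0.851%, 0.498 to 1.45), against 10.5% on chromosome 11 and 5.27% on chromosome 16. The EedcKO list held only 106 summits on X, or 0.269% of it, against 2.50% of the wild type list. Promoter counts on X did not differ as much. They made up 1.96% of EedcKO Eed counts and 2.07% of wild type Eed counts, beside 2.401% in EedcKO input and 2.64% in wild type input. The difference in summits on X was not tested. Without X, 7.55% of wild type summits were shared.

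Shared summits lay near summits of H3K27me3, H3K27ac and RNA-Pol2 more often than wild type only summits did. Near again means within 500 bp. Wild type H3K27me3 summits lay near 715 shared summits (15.9%, 14.8 to 17.0), against 4.77% (4.60 to 4.95) of wild type only and 5.59% of all wild type Eed summits. H3K27ac summits of wild type lay near 16.6% (15.5 to 17.7) of shared and 6.02% (5.82 to 6.22) of wild type only summits, beside 6.8% of all. For wild type RNA-Pol2 the shares were 7.83% of shared and 2.88% of wild type only summits, beside 3.25% of all. Near both histone marks at once lay 1.84% of shared and 0.517% of wild type only summits, so that most shared summits near a mark lay near only 1 of them.

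The lists labelled EedcKO gave the same order. Near the list labelled EedcKO RNA-Pol2 lay 34.9% (33.5 to 36.3) of shared and 13.2% (12.9 to 13.5) of wild type only summits, beside 14.8% of all. Near the list labelled EedcKO H3K27ac, whose promoter counts follow wild type H3K27me3, lay 16.1% of shared and 4.58% of wild type only summits, beside 5.43% of all. The list labelled EedcKO H3K27me3 held only 671 summits, and 1.29% of shared and 0.610% of wild type only summits lay near it, beside 0.66% of all. A sizeable part of the shared summits, 2118 or 47.0%, lay near none of the 6 other lists, as did 81.0% of wild type only summits.

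Splitting summits by position separated the marks over all promoter summits, but not away from promoters. At promoters, 21.0% (19.4 to 22.7) of shared and 12.9% (12.3 to 13.5) of wild type only summits lay near wild type H3K27me3, while for wild type H3K27ac the shares were 26.8% (25.01 to 28.7) of shared and 23.2% (22.4 to 23.9) of wild type only summits. For wild type RNA-Pol2 at promoters they were 12.4% (11.1 to 13.9) of shared and 10.7% (10.2 to 11.2) of wild type only summits, with overlapping intervals. Near the list labelled EedcKO H3K27me3 they were 2.27% of shared and 2.52% of wild type only summits, in the other order and with overlapping intervals. Away from promoters the ratios of shared to wild type only shares were larger and alike between marks. They were 4.24 for wild type H3K27me3, 4.96 for wild type H3K27ac and 4.42 for wild type RNA-Pol2. There 10.8% (9.57 to 12.1) of shared and 2.54% (2.397 to 2.69) of wild type only summits lay near wild type H3K27me3, 6.49% of shared and 1.31% of wild type only near wild type H3K27ac, and 17.9% of shared and 4.58% of wild type only near the list labelled EedcKO RNA-Pol2.

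Score moved with these shares. In the lowest quintile of wild type score, 7.07% (4.94 to 10.03) of 396 shared and 0.786% (0.656 to 0.940) of 15021 wild type only summits lay near wild type H3K27me3. In the highest quintile, which held 2103 of the shared summits, these shares were 20.9% (19.2 to 22.7) of shared and 15.04% (14.4 to 15.7) of wild type only summits. There the intervals overlapped for wild type H3K27ac (22.3% of shared and 20.6% of wild type only) and for wild type RNA-Pol2 (10.7% of shared and 9.81% of wild type only). At promoters in the highest quintile the order turned, also with overlapping intervals, with 27.2% of shared and 28.2% of wild type only summits near wild type H3K27ac and 12.6% of shared and 13.2% of wild type only near wild type RNA-Pol2. Over all summits the difference for wild type H3K27me3 was 11.1 percentage points (10.04 to 12.2), and it was 6.97 points with wild type only summits weighted to the score quintiles of the shared ones. The same weighting gave 4.76 points for wild type H3K27ac, against 10.6 points unweighted, and 2.18 points for wild type RNA-Pol2, against 4.95 points unweighted.

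**Figure D2:**
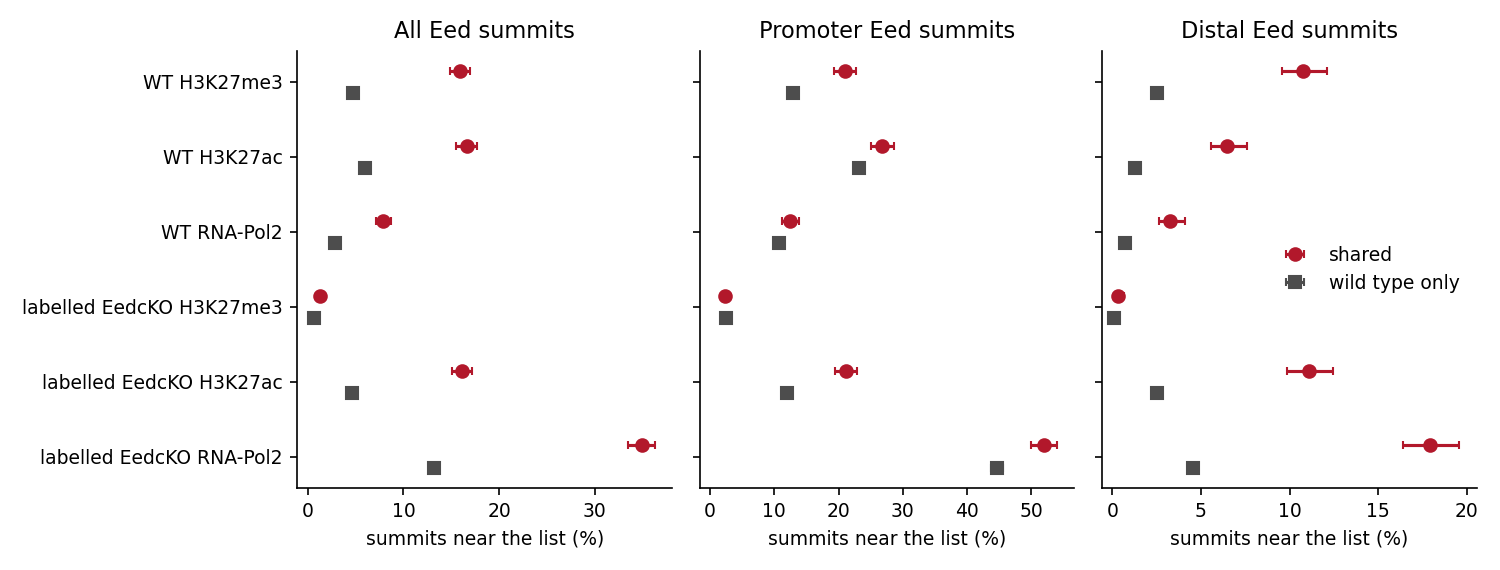
Share of shared and wild type only Eed summits (percent, with 95% Wilson intervals) within 500 bp of a summit of each of the 6 other lists, for all, promoter and distal summits; the axis differs between panels. At promoters 21.0% of shared and 12.9% of wild type only summits lay near wild type H3K27me3, and away from promoters 10.8% of shared and 2.54% of wild type only summits did.

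Promoters with a shared summit carried more H3K27me3 in wild type than promoters with a wild type only summit, most clearly in the upper quartile. Differences in H3K27ac and RNA-Pol2 were smaller. Of 21396 protein-coding genes, 2091 had a shared summit in a promoter window (9.77%), 9625 had only wild type only summits at the window used, and 9680 had no wild type Eed summit there. Counts were turned into RPKM, the count per kilobase of window scaled to the library's total promoter count. Median wild type H3K27me3 was 9.17 RPKM at shared promoters (upper quartile 20.5) and 7.43 RPKM at wild type only promoters (upper quartile 12.7), and 3.796 RPKM at promoters without a summit. Medians of wild type H3K27ac were 17.7 RPKM at shared and 17.2 RPKM at wild type only promoters, and those of wild type RNA-Pol2 were 14.7 RPKM at shared and 13.5 RPKM at wild type only promoters. Wild type input had medians of 12.8 RPKM at shared and 12.3 RPKM at wild type only promoters, and wild type IgG had 9.56 RPKM at shared and 8.85 RPKM at wild type only promoters. The median fold of wild type H3K27me3 over IgG was 1.06 at shared and 0.926 at wild type only promoters, near the control in both. Over all promoter symbols, log2 ratios of shared to wild type only medians in wild type were 0.40 for H3K27me3, 0.19 for RNA-Pol2, 0.13 for H3K27ac and 0.12 for input.

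In the EedcKO libraries medians were also higher at shared promoters, except for input, which ran the other way. The library labelled EedcKO H3K27me3 had medians of 14.8 RPKM at shared and 13.9 RPKM at wild type only promoters. The library labelled EedcKO H3K27ac had medians of 7.58 RPKM at shared and 6.06 RPKM at wild type only promoters, with upper quartiles of 19.8 RPKM at shared and 11.3 RPKM at wild type only ones. At shared promoters the library labelled EedcKO RNA-Pol2 had 18.9 RPKM, EedcKO input 11.1 RPKM and EedcKO IgG 12.8 RPKM. At wild type only promoters the library labelled EedcKO RNA-Pol2 had 17.8 RPKM, EedcKO input 11.6 RPKM and EedcKO IgG 11.5 RPKM. Eed itself, which chose the classes, had 17.6 RPKM at shared and 14.5 RPKM at wild type only promoters in EedcKO, beside 27.9 RPKM at shared and 24.3 RPKM at wild type only promoters in wild type. Without a wild type Eed summit, promoters had 7.603 RPKM of Eed in EedcKO and 2.28 RPKM in wild type, below the inputs of 8.96 RPKM in EedcKO and 8.34 RPKM in wild type. In this scaling the EedcKO Eed level at wild type only promoters was also above its input, though no EedcKO summit was called near the wild type one. RPKM here is a share of each library's promoter counts, so enrichment over input is not shown by it. EedcKO IgG had the same order, with 11.5 RPKM at wild type only promoters and 8.31 RPKM at those without a wild type summit.

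**Figure D3:**
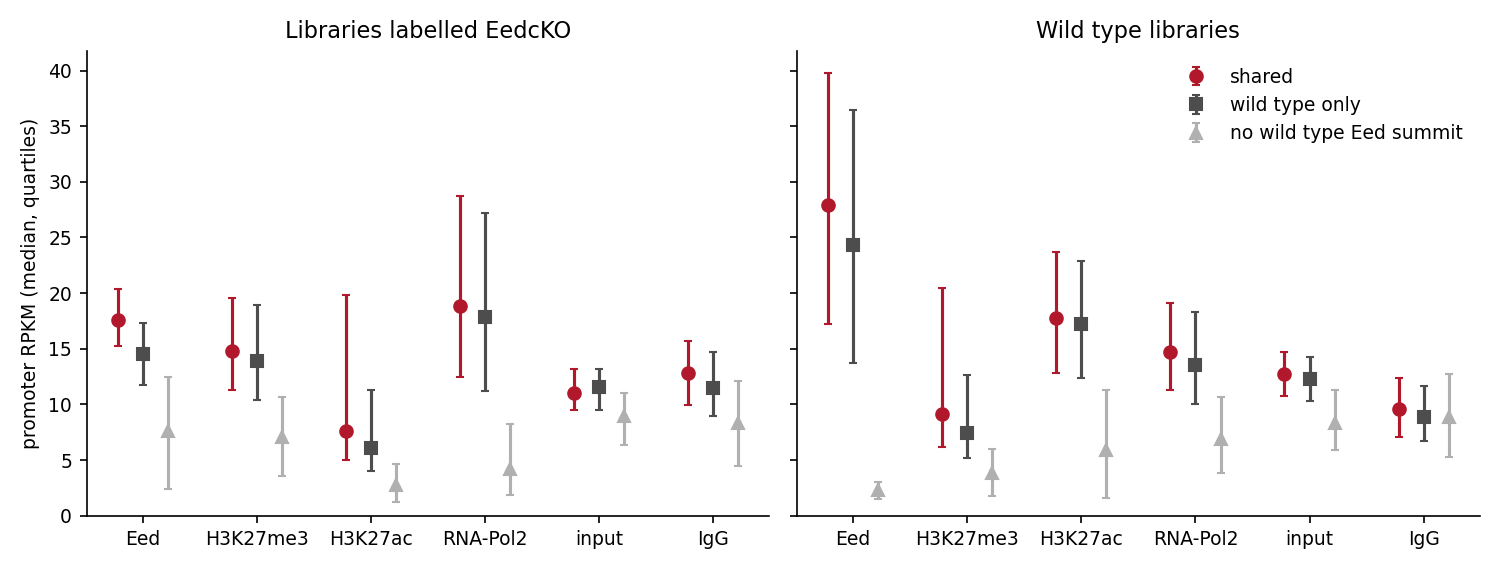
Promoter RPKM (points are medians over protein-coding genes, bars run from the lower to the upper quartile) in the libraries labelled EedcKO (left) and wild type (right), for genes with a shared, a wild type only or no wild type Eed summit in a promoter window. Wild type H3K27me3 reached an upper quartile of 20.5 RPKM at shared and 12.7 RPKM at wild type only promoters, while wild type H3K27ac had medians of 17.7 RPKM at shared and 17.2 RPKM at wild type only promoters.

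High H3K27me3 was found at a minority of promoters in both classes, with the larger share among shared ones. In a comparison added after the data were seen, wild type H3K27me3 was at least 4-fold over wild type IgG at 303 of 2091 shared promoters (14.5%), 932 of 9625 wild type only promoters (9.68%) and 6.68% of all protein-coding promoters. Wild type H3K27ac was at least 2-fold over IgG at 43.8% of shared and 46.6% of wild type only promoters, beside 29.1% of all, and wild type RNA-Pol2 at 29.3% of shared and 31.4% of wild type only promoters, beside 19.9% of all. Turned round, 24.5% (22.2 to 27.0) of 1235 promoters with this much H3K27me3 and a wild type Eed summit had a shared one. Among 9400 promoters with an Eed summit and H3K27me3 under 2-fold, the share was 16.5% (15.8 to 17.3), and among 5399 with H3K27ac at least 2-fold it was 16.9% (16.0 to 18.0).

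Strong Eed summits showed the same split. Among promoters whose best wild type Eed summit was in the top quintile by score, 16.7% (14.9 to 18.6) of 1519 shared and 11.2% (10.4 to 12.02) of 6167 wild type only promoters were high in H3K27me3. For H3K27ac in the same quintile the order was the other way, with 44.8% (42.3 to 47.3) of shared and 50.7% (49.4 to 51.9) of wild type only promoters. In the lower quintiles the intervals of both classes overlapped for both marks. The 303 shared promoters high in H3K27me3 had median counts of 41 in the library labelled EedcKO H3K27me3 and 578 in wild type H3K27me3, beside 792 in the library labelled EedcKO H3K27ac and 44 in wild type H3K27ac. Their median Eed counts were 56 in EedcKO and 133 in wild type, beside inputs of 20 in EedcKO and 24 in wild type.

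**Figure D4:**
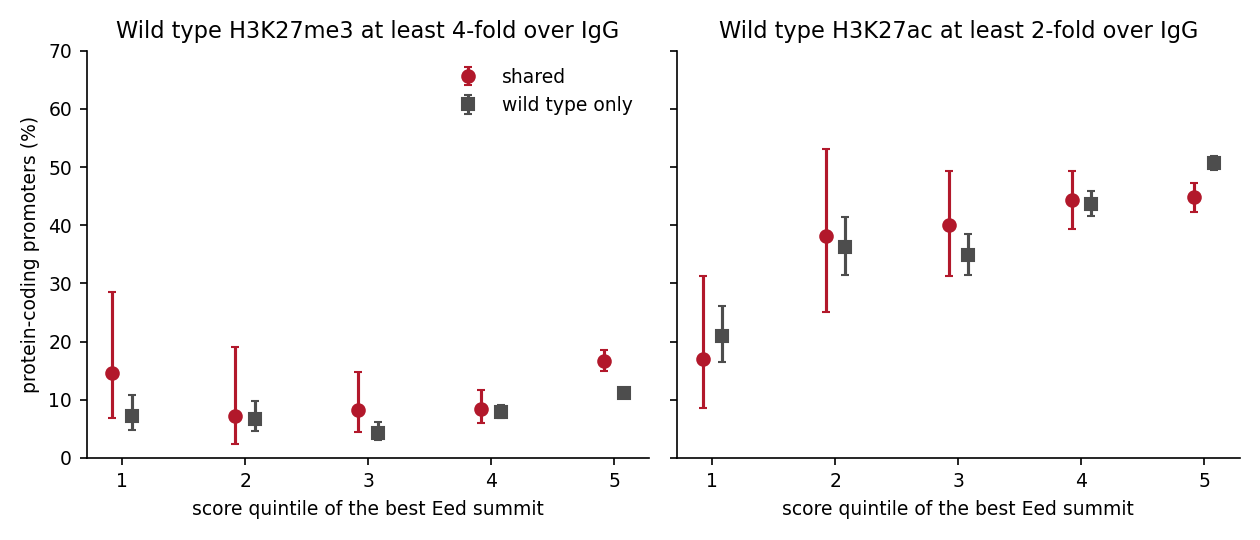
Share of protein-coding promoters (percent, with 95% Wilson intervals) with wild type H3K27me3 at least 4-fold (left) or wild type H3K27ac at least 2-fold (right) over wild type IgG, by quintile of the score of the best wild type Eed summit, low to high. In the top quintile 16.7% of shared and 11.2% of wild type only promoters passed for H3K27me3, and 44.8% of shared and 50.7% of wild type only promoters for H3K27ac.

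Between genotypes, RNA-Pol2 counts at shared promoters shifted much as at wild type only promoters. The ratio of EedcKO to wild type is given on the log2(RPKM + 0.5) scale relative to the median of all promoters averaging 1 RPKM or more over both libraries, whose own log2 ratio was -0.41 for RNA-Pol2, -1.04 for H3K27ac, 0.85 for H3K27me3 and 0.88 for Eed. The ratios take in all promoter symbols that passed this limit, not only the protein-coding genes of the RPKM medians above. Over these symbols, RNA-Pol2 had a median relative log2 ratio of 0.80 (0.77 to 0.82) over 2606 shared promoters and 0.73 (0.72 to 0.74) over 13396 wild type only promoters. It was at least 2-fold higher in the library labelled EedcKO at 33.7% of shared and 30.7% of wild type only promoters, beside 12.2% of all promoters, and at least 2-fold lower at 0.307% of shared and 1.62% of wild type only ones, beside 7.86% of all. IgG had medians of 0.39 at shared and 0.32 at wild type only promoters, with 14.2% of shared and 15.1% of wild type only promoters at least 2-fold higher, beside 7.33% of all, and its part in the RNA-Pol2 values was not tested.

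The ratios of both histone marks follow labels that the counts put in doubt. By label, H3K27me3 was at least 2-fold lower in EedcKO at 794 of 2601 shared promoters (30.5%) and at 20.8% of wild type only promoters, beside 13% of all. Its median relative log2 ratio was -0.13 at shared and 0.03 at wild type only promoters, and without the shift to the median promoter the shared value was 0.72. H3K27ac was by label at least 2-fold higher in EedcKO at 777 of 2598 shared promoters (29.9%) and at 20.9% of wild type only promoters, beside 18.2% of all. It was at least 2-fold lower at 19.6% of shared and 23.3% of wild type only promoters, beside 11.7% of all, and its median relative log2 ratio was -0.24 at shared and -0.35 at wild type only promoters. Eed, the target that chose the classes, had medians of -1.53 at shared and -1.56 at wild type only promoters, with 69.2% of shared and 68.9% of wild type only ones at least 2-fold lower, beside 30% of all. Input had medians of -0.17 at shared and -0.11 at wild type only promoters. It was at least 2-fold higher at 0.345% of shared and 0.936% of wild type only promoters, beside 3.33% of all, and at least 2-fold lower at 2.30% of shared and 2.66% of wild type only ones, beside 2.5% of all.

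Shared promoter summits were counted in 31 gene lists and set beside the 9.77% of all protein-coding genes that had one and the 54.8% that had any wild type Eed summit. Most of the lists are small, and most intervals include the 9.77%. The lists were chosen with earlier results known, and their counts are descriptions. Of genes with any wild type Eed summit at a promoter, 17.8% had a shared one. Read against that share, the intervals of the lists with the highest shares also included it. These were 33.3% each for PRC2 (13.8 to 60.9), Trithorax and H3K27 demethylase genes (15.2 to 58.3) and endothelial genes (12.1 to 64.6). Next in this order were 30% (16.7 to 47.9) for midbrain, hindbrain and spinal cord regulators and 29.03% (16.1 to 46.6) for Hox genes. Intervals lay below 17.8% for Zfp genes (11.1%, 7.58 to 16.0), keratin genes (2.70%, 0.479 to 13.8) and olfactory and vomeronasal receptor genes (0%, 0 to 14.9).

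Genes of the Polycomb and Trithorax machinery were among the holders of shared summits. Shared were 4 of 14 PRC2 genes (28.6%, 11.7 to 54.6), 3 of 20 PRC1 genes (15%) and 5 of 20 Trithorax and H3K27 demethylase genes (25%, 11.2 to 46.9). In PRC2 these were Eed, Ezh1, an alternative methyltransferase, and Phf1 and Phf19, accessory subunits with a Tudor domain. The Ezh1 window (chromosome 11, 101225463 to 101227462) held 41 EedcKO and 136 wild type Eed counts, beside inputs of 15 in EedcKO and 27 in wild type. In PRC1 they were Bmi1, a core RING-finger partner (43 EedcKO and 293 wild type Eed counts), Pcgf5, another partner of this family (60 EedcKO and 332 wild type), and Yaf2, an accessory subunit (51 EedcKO and 185 wild type). Bmi1 held 296 counts of wild type H3K27me3 and Pcgf5 held 294, while Yaf2 held 36. Among the counterparts of Polycomb, shared summits lay at Kmt2a, which methylates lysine 4 of H3, at the acetyltransferase genes Ep300 and Crebbp, and at Men1, a partner of Kmt2a.

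Hox genes, the regulators of position along the trunk and hindbrain, had shared summits at 9 of 39 promoters (23.1%, 12.6 to 38.3) and wild type only summits at 22. Hoxd1 (chromosome 2, 74761980 to 74763979) held 65 EedcKO and 282 wild type Eed counts, beside 1072 wild type H3K27me3 counts. Hoxa11 held 84 EedcKO and 129 wild type Eed counts beside 1613 wild type H3K27me3 counts. Hoxd10 held 61 EedcKO and 77 wild type Eed counts beside 1875, and Hoxa4 held 54 EedcKO and 209 wild type Eed counts beside 946. Of these 4 genes, Hoxd1 had an H3K27me3 summit within 500 bp of its Eed summit in wild type and the other 3 had none, so that a high H3K27me3 count over the window and a nearby H3K27me3 summit were different measures. In the library labelled EedcKO H3K27me3 the 4 promoters held 11 to 30 counts, and in the library labelled EedcKO H3K27ac 1088 to 2378.

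Regulators of other brain regions and lineages also held shared summits, and those named below had high H3K27me3 counts in wild type. Shared summits lay at 9 of 35 midbrain, hindbrain and spinal cord regulators (25.7%, 14.2 to 42.1), 10 of 57 non-neural lineage regulators (17.5%, 9.82 to 29.4) and 5 of 32 secreted signal genes (15.6%, 6.86 to 31.8). Ptf1a, which specifies pancreas and inhibitory neurons of the hindbrain, held 74 EedcKO and 193 wild type Eed counts beside 1543 wild type H3K27me3 counts. Gata2 held 64 EedcKO and 207 wild type Eed counts beside 1741 of wild type H3K27me3, and Foxa2, a floor plate and endoderm regulator, held 41 EedcKO and 82 wild type Eed counts beside 1329. Outside the nervous system, Myod1, the muscle determination gene, held 45 EedcKO and 120 wild type Eed counts beside 690 wild type H3K27me3 counts, and Tbx2, a T-box regulator of heart and limb, held 61 EedcKO and 338 wild type Eed counts beside 1226. Among signals, the hedgehog ligand gene Ihh held 69 EedcKO and 274 wild type Eed counts beside 1712, and Wnt3a, a ligand of the cortical hem, held 35 EedcKO and 111 wild type Eed counts beside 961.

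Genes of the forebrain itself were mixed. Shared summits lay at 5 of 26 cortical progenitor genes, 1 of 18 neurogenic and intermediate progenitor genes, 5 of 29 cortical neuron genes and 5 of 26 ventral forebrain and interneuron genes. Dmrta2, a regulator of the cortical hem and progenitors, held 78 EedcKO and 165 wild type Eed counts beside 1006 wild type H3K27me3 counts, and Hes5, a Notch target that keeps progenitors undifferentiated, held 53 EedcKO and 172 wild type Eed counts beside 181. Neurog1, the neurogenic gene among the members, held 65 EedcKO and 179 wild type Eed counts beside 1314. Bcl11b, needed for projection neurons, held 60 EedcKO and 268 wild type Eed counts beside 39 of wild type H3K27me3 and 41 of wild type H3K27ac. In the ventral list, Nkx2-1, which specifies the medial ganglionic eminence, held 44 EedcKO and 77 wild type Eed counts beside 1342 of wild type H3K27me3, and Gad2, an enzyme of GABA synthesis, held 68 EedcKO and 46 wild type Eed counts beside 626. Gad2 is thus a shared promoter with fewer Eed counts in wild type, at library totals of 1446764 promoter counts in EedcKO Eed and 1972842 in wild type Eed. Its inputs were 22 counts in EedcKO and 24 in wild type, at totals of 948955 in EedcKO input and 1018763 in wild type input. At these totals its wild type Eed count was not shown to exceed input.

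Genes in general use also held shared summits, and those named below had low H3K27me3 counts. They lay at 5 of 34 cell cycle and replication genes, 5 of 31 proteasome genes, 6 of 34 spliceosome genes, 3 of 20 aminoacyl-tRNA synthetase genes, 4 of 20 housekeeping genes and 2 of 15 p53 pathway genes, or 13.3% to 20% of these lists. The interval of each of these lists included the 9.77% of all protein-coding genes. Cdk1, the mitotic kinase, held 60 EedcKO and 63 wild type Eed counts beside 44 of wild type H3K27me3 and 79 of wild type H3K27ac. Eprs, a tRNA synthetase gene, held 51 EedcKO and 95 wild type Eed counts beside 50 of wild type H3K27me3 and 119 of wild type H3K27ac, and Psmd11, a subunit of the proteasome lid, held 42 EedcKO and 170 wild type Eed counts beside 24 of wild type H3K27me3 and 106 of wild type H3K27ac. Shares were lower for cytosolic ribosomal protein genes (7 of 89, 7.87%), mitochondrial ribosomal protein genes (5 of 78, 6.41%), Zfp genes (24 of 401, 5.99%), histone genes (5 of 84, 5.95%) and imprinted genes (2 of 33, 6.06%). Of these, only the Zfp interval (4.05 to 8.75) lay below 9.77%, and the other intervals included it. The histone genes H2ac1 and H2bc1 share 1 summit between overlapping windows.

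Small lists of marker genes of other cell types, and of CDK inhibitor genes, held 0 to 3 genes with a shared summit each. Shared summits lay at 3 of 16 endothelial genes (18.75%), 2 of 14 mesenchyme and pericyte genes (14.3%) and 2 of 14 oligodendrocyte genes (14.3%). These shares were above the 9.77% of all protein-coding genes. Shared summits lay at none of 15 microglia and macrophage, 14 erythroid, 13 astroglial and 7 CDK inhibitor genes, with wild type only summits at 1, 1, 4 and 4 of these. The intervals of all these lists included 9.77%, so none of them stood apart from it. Flt1, a VEGF receptor gene of endothelium, held 60 EedcKO and 221 wild type Eed counts beside 1458 of wild type H3K27me3, and Kdr, the other main receptor of this kind, held 55 EedcKO and 72 wild type Eed counts beside 758. Olig1, an oligodendrocyte lineage gene, held 44 EedcKO and 215 wild type Eed counts beside 1241. Olfactory and vomeronasal receptor genes had a shared summit at 0 and a wild type only summit at 22 of 1466, and keratin genes had 1 shared and 36 wild type only among 107.

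**Figure D5:**
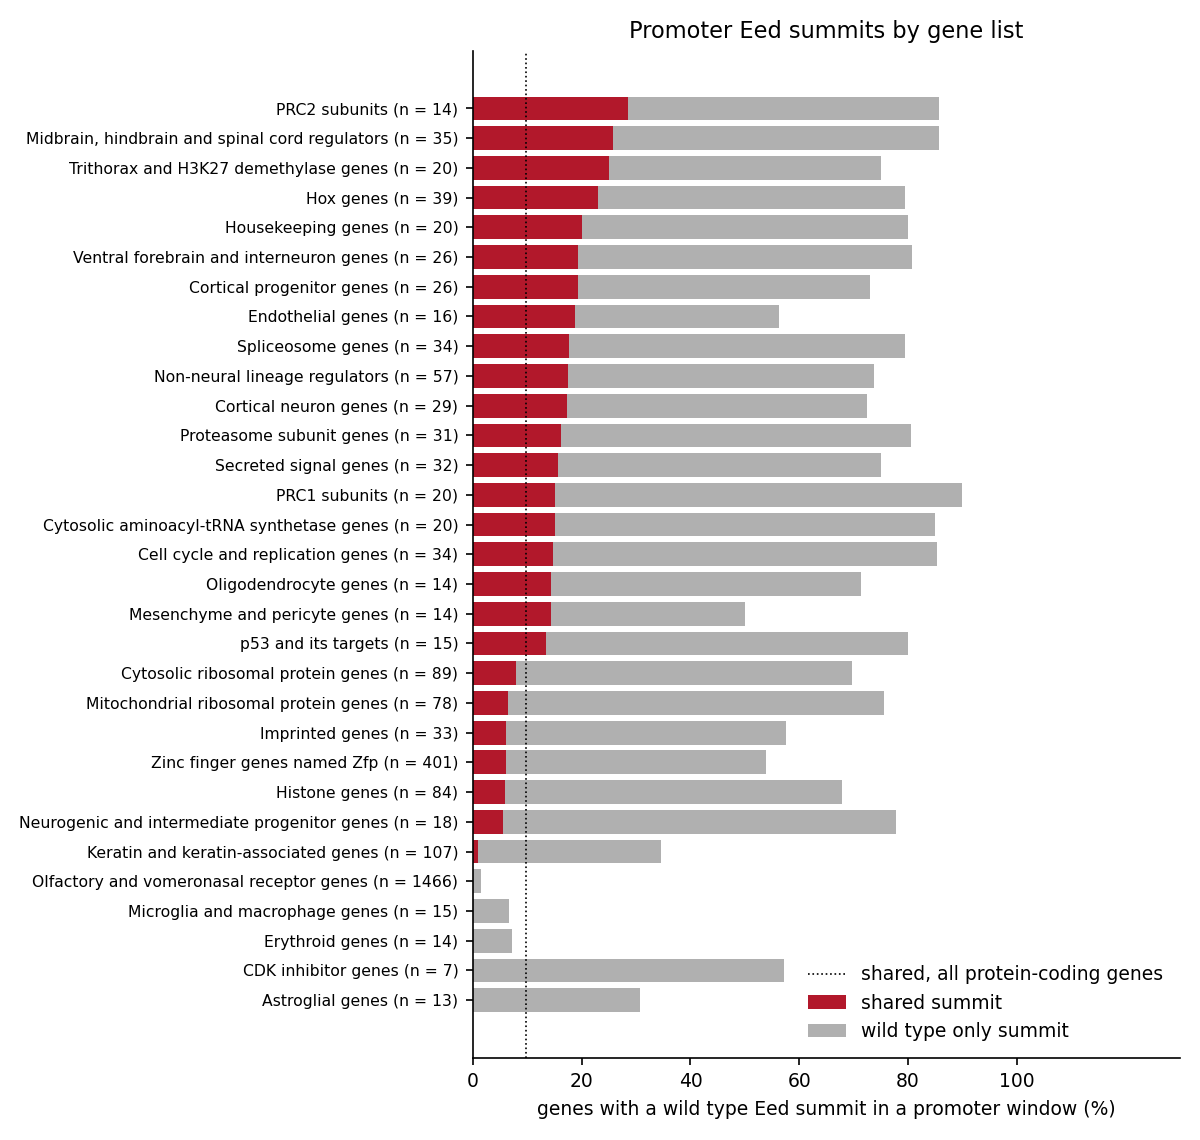
Share of the measured genes of each list (percent, n in brackets) with a shared (red) or a wild type only (grey) Eed summit in a promoter window; the dotted line marks the 9.77% of all protein-coding genes with a shared one. PRC2 genes (28.6%) and midbrain, hindbrain and spinal cord regulators (25.7%) stand at the top, and olfactory and vomeronasal receptor genes at 0 of 1466.

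The matched promoter pairs with the highest scores in both genotypes fell at genes of varied use. Among named protein-coding genes ranked by the lower score of the pair, the first was Sfi1, a centrosome gene (chromosome 11, 3192463 to 3194462), with 953 EedcKO and 877 wild type Eed counts. Its controls were as unusual, with inputs of 429 in EedcKO and 471 in wild type and IgG counts of 1265 in EedcKO and 1494 in wild type, so that this window was high in every library. Tm6sf1, a membrane protein gene, came next with 61 EedcKO and 125 wild type Eed counts and a summit near wild type H3K27me3. Irs2, an adaptor of insulin signalling, held 59 EedcKO and 295 wild type counts, and Ppp4r4, a phosphatase regulator, held 51 EedcKO and 182 wild type counts. Lrrc51 and Numa1, a spindle gene, have overlapping windows and share 1 summit. Ube3c, Smg9 and Prdx1, which serve protein turnover, RNA decay and peroxide removal, lay near wild type H3K27ac. Prdx1 held 52 EedcKO and 49 wild type Eed counts, and Clpb, a mitochondrial chaperone gene, held 40 EedcKO and 21 wild type counts. Input at Prdx1 was 25 in EedcKO and 33 in wild type, and at Clpb 19 in EedcKO and 29 in wild type, above the wild type Eed count there. Promoter counts totalled 1972842 in wild type Eed and 1018763 in wild type input. The raw counts therefore do not show wild type Eed above input at Prdx1 either.

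Of the pairs more than 10 kb from any start site, the 5 with the highest lower score coincided closely in position. Near Filip1l, 38532 bp from its start site, the summits lay at 57391624 in EedcKO and 57391625 in wild type on chromosome 16, with scores of 26.3 in EedcKO and 57.1 in wild type, and that EedcKO score was the highest of its list. The next were near Ccl28, a chemokine gene (chromosome 13, 119597781 in EedcKO and 119597727 in wild type, and a further pair at 119601499 in EedcKO and 119601436 in wild type), and near Cdk8, a kinase of the Mediator complex (chromosome 5, 146261168 in EedcKO and 146261164 in wild type). These 4 pairs lay near none of the 6 other lists. The last, with Pex2 as nearest named gene 284486 bp away, lay near wild type H3K27me3. Input was counted at promoters, so its level at these positions was not measured here.

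The promoter sequences of shared and wild type only genes were alike in base composition and differed in some motifs. A RefSeq promoter within 500 bp of the deposited start site was found for 17054 symbols. Median GC content was 63.7% for 1639 shared, 63.0% for 7646 wild type only and 49% for 7769 promoters without a wild type Eed summit, and the median number of CpG dinucleotides in 300 bases was 23 for shared, 23 for wild type only and 4 for the promoters without a summit. GGGCGG, the letters of a GC box, was found on either strand in 71.5% of shared and 70.1% of wild type only promoters, against 46.3% of all. CCGGAAG, an ETS-type motif, was in 15.4% of shared and 17.8% of wild type only promoters, against 12.01% of all. CCAAT was in 35.2% of shared and 37.4% of wild type only promoters, against 38.7% of all, and TATAAA was in 5.43% of shared and 6.64% of wild type only promoters, against 12.02% of all. The NRF1 motif was in 8.11% of shared and 11.7% of wild type only promoters, against 6.65% of all, the widest relative gap between the classes among these motifs. All were searched on both strands. None of these motifs contains another, though matches can share bases at their ends. Promoters whose Eed summit lay near wild type H3K27me3 had the ETS-type motif in 4.57% of 350 shared and 8.15% of 1019 wild type only cases, and a match is a description of letters only. Of the sequences printed above, Yrdc and Szrd1 hold the ETS-type motif and Col8a2, Dock10 and Bcam do not, while all 5 hold GGGCGG. Only Szrd1, a shared promoter, also holds the NRF1 motif.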

How the data were processed

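Promoter counts and peak summits from 12 deposited libraries were used, with 1 library per genotype and target. Build mm10, the aligner Bowtie2 2.4.1, the peak caller MACS2 2.2.7.1, and ChIPseeker 1.22.1 and deepTools 3.4.0 are listed per the submitters' processing notes. The deposited promoter tables are named for RPKM but hold whole-number counts of the authors for 55385 windows, 55383 of them 2 kb long, and RPKM was computed from them with the library's total. The deposited summit lists give a −log10 score by the authors, called per library; whether of a p-value or q-value is not stated, nor are filters on duplicates. Distances were taken between column 2 positions, and printed positions count from 1. Each symbol was represented by its window of highest RPKM averaged over the 8 antibody libraries. Ratios used a pseudocount of 0.5 RPKM, a mean of at least 1 RPKM and an absolute relative log2 ratio of at least 1. Intervals of shares are 95% Wilson intervals, those of differences between shares Newcombe intervals, and those of medians order-statistic intervals over genes; all cover counting error only, as duplicate reads could not be told from separate molecules. Gene types and 39149 symbol matches came from RefSeq GRCm38.p6. Named genes were protein-coding genes with a given name at the 10 promoter shared summits with the highest lower score of the pair, the 5 such shared summits over 10 kb from any start site, the 10 wild type only promoter summits with the highest score, up to 4 members per list and the genes with most shared summits within 5 kb; genes from other places are named in marker checks and sequences. Members, lists and rules were chosen with earlier results of these data known. Alternatives changed the distances, score minimum, scaling, pseudocount and filters. Scripts (Python 3.11.15, pandas 2.3.3, numpy 2.4.6, scipy 1.17.1, statsmodels 0.14.6, matplotlib 3.10.9) were tested on simulated data. Sequences under distal summits were not used here.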

Additional observations from a re-analysis of the deposited data

How the results depend on the processing

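The share of wild type Eed summits that were shared was 3.88% with a limit of 200 bp, 11.5% with 1000 bp, 6.98% among summits at or above the median score of their list and 5.55% among summits with no other wild type Eed summit within 5 kb. The excess of shared over wild type only summits in promoter share (28.2 points) was 24.5 points with a limit of 1000 bp, 19.8 above the median score, 14.6 within 250 bp and 30.3 within 2500 bp of a start site, 37.9 among summits with no other within 5 kb and 11.4 weighted to the score quintiles. For nearness to wild type H3K27me3 (11.1 points) it was 9.49 with a limit of 200 bp, 7.62 above the median score, 5.38 with near as 200 bp, 15.8 with near as 1000 bp and 6.97 weighted. For wild type H3K27ac (10.6) it was 8.95 with a limit of 1000 bp, 3.50 above the median score, 5.66 and 12.7 with near as 200 bp and 1000 bp, 4.76 weighted and 14.6 without neighbours. For wild type RNA-Pol2 (4.95) it was 1.29 above the median score, 2.37 and 6.56 with near as 200 bp and 1000 bp and 2.18 weighted. These excesses stayed above 0 in every alternative setting run. Among promoter summits of the highest score quintile, however, they were -0.997 points for wild type H3K27ac and -0.583 points for wild type RNA-Pol2. In the lower quintiles of promoter summits both were above 0. For the list labelled EedcKO H3K27me3 (0.677) the excess was -0.075 points above the median score, and the cause was not tested. The median ratio at shared promoters depended on scaling. For H3K27me3 (-0.13) it was 0.72 without the shift, -0.034 with a pseudocount of 2 RPKM and -0.060 without the filter. For H3K27ac (-0.24) these were -1.27, -0.31 and -0.36, and -0.30 with a limit of 200 bp. For RNA-Pol2 (0.80) they were 0.39, 0.68 and 0.74, and 0.84 with a pseudocount of 0.1 RPKM. Over all promoter symbols, the log2 ratio of shared to wild type only median input in wild type (0.12) was 0.12 without the 5% of promoters with the most input, just past its interval. Weighting, neighbours and the run without X were added after the data were seen. No paired analysis was possible because each genotype had 1 library per target. With 1 library per group, no replicate could be left out.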

Other observations

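The wild type only promoter summits with the highest wild type scores fell at genes of varied use. They were Adgrb3, an adhesion receptor gene, Dnaja4, Fgd4, Phlda3, Sycp2, Eif4b, Elmo1, Zbtb7a, Stip1 and Rabep1. Adgrb3 (chromosome 1, 25828707 to 25830706) held 48 EedcKO and 194 wild type Eed counts, beside inputs of 18 in EedcKO and 25 in wild type. Elmo1 held 34 EedcKO and 317 wild type Eed counts and Eif4b, a translation initiation factor gene, held 30 EedcKO and 210 wild type Eed counts. Zbtb7a, a zinc finger repressor gene, held 58 EedcKO and 187 wild type Eed counts beside 93 in the library labelled EedcKO H3K27me3 and 587 in wild type H3K27me3. Over these 10 promoters EedcKO Eed counts ran from 30 in Eif4b to 58 in Zbtb7a.

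EedcKO Eed summits with no wild type summit near were rare at promoters. Of 34646 such summits, 7.70% lay in a promoter window, against 49.4% of the 4705 EedcKO summits near a wild type one. On the Y chromosome, 6 of 21 wild type Eed summits were shared.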
